A study of Mus musculus with 5 samples.

Results

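The granins and the granule membrane proteins of the IA-2 family are the matrix and membrane components that mark the dense core secretory granule. They were described here through 7 genes, Chga, Chgb, Scg2, Scg3, Vgf, Ptprn and Ptprn2, taken by the gene names that the array tables carry on spots that are not controls. All 7 were on the array, measured by 9 of its 39429 probes, and all 9 probes were well above background on all 5 arrays, so that no member was lost to a filter. RNA came from MIN6 cells, a mouse insulinoma line that secretes insulin and serves as a model of pancreatic beta cells. In the EXO-HP group (n = 3 arrays) the cells had been given exosomes, small vesicles that cells release, collected by ultracentrifugation from the medium of dissected muscle of mice fed a high fat diet. In the EXO-STD group (n = 2 arrays) the muscle donors had eaten a standard diet. Both groups therefore received muscle vesicles, and cells without vesicles were not analysed here. The mouse strain and age, the muscle, the vesicle dose and the exposure time are not given in the sources used here, and although the titles number biological replicates, separate cultures or mice are not named. The p-values therefore refer to the spread between these arrays, which may be technical in part.

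Granins are acidic, soluble proteins that bind calcium and aggregate with prohormones in the trans-Golgi network, which helps to load and condense the granule core. Once inside the granule they are cut by prohormone convertases at pairs of basic residues, and several of the fragments act as peptide hormones. IA-2, encoded by Ptprn, and IA-2beta, encoded by Ptprn2, span the granule membrane. They look like receptor tyrosine phosphatases but lack normal catalytic activity, and both are known as autoantigens of autoimmune diabetes. In beta cells these proteins share the granule with insulin.

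Promoters of granin genes are known for a cAMP response element (CRE), the site bound by CREB family factors, and the stretches that hold it are shown because the motif did not enter the choice of the members and occurs in some of them. Promoter sequences, from 250 bases before to 50 after each gene's start, were available from RefSeq (GRCm38.p6) for 6 of the 7 genes, Ptprn with a pair of starts. The palindrome TGACGTCA lay in the promoters of Chgb and Scg2, 2 of these 6 genes, and in those of 549 of all 27025 genes (2.03%). The form TGACGTAA, searched on both strands, lay in that of Chga alone among the 6 and in 0.581% of all genes. In the lines below capitals mark these motifs and each stretch runs 5′ to 3′ on the strand of its gene.
Chga: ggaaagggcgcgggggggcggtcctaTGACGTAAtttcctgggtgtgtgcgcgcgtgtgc
Chgb: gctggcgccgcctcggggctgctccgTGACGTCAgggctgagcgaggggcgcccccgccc
Scg2: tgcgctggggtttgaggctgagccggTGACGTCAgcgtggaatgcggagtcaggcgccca
The Chga stretch is chr12:102554871-102554930 on the plus strand, with its motif 44 to 37 bases before the start. That of Chgb is chr2:132781544-132781603 on the plus strand, with the motif 72 to 65 bases before the start, and that of Scg2 is chr1:79440061-79440120 on the minus strand, with the motif 68 to 61 bases before it. The shorter half-site TGACG, which is contained in both motifs and was counted on both strands, lay at 1 or more starts of 5 of the 6 genes, including Scg3 and 1 of the 2 starts of Ptprn but not Ptprn2, against 23.0% of all 27025 genes. Granin promoters were known for the CRE before this search, so the shares of all genes are a description and no test of enrichment. A match of letters is a description of the window and not a measured binding site.

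The array reads each gene through 60-base probes, whose positions the array design gives on the mm9 build. Chga was measured on chromosome 12, 103803083 to 103803142, and Chgb on chromosome 2, 132620703 to 132620762. Scg2 was measured on chromosome 1, 79431323 to 79431382, Scg3 on chromosome 9, 75491320 to 75491379, and Vgf on chromosome 5, 137509153 to 137509212. The Ptprn probe lay on chromosome 1, 75248386 to 75248445. Ptprn2 had 3 probes on chromosome 12. Its probe 1 (117960601 to 117960660) starts at base 350 of the transcript, whereas probe 2 (118515207 to 118515266) and probe 3 (118515222 to 118515281) start at bases 3254 and 3269, share 45 bases and lie 555 kb downstream of probe 1 in the genome. Probes 2 and 3 are therefore not independent readings. The probes of Ptprn and of the 5′ part of Ptprn2 are shown because they are the readings on which the results for the IA-2 family turn. Both are open in at least 1 reading frame over their whole length, as are the probes of Chga, Scg2 and Scg3. An open frame over 60 bases does not show that a probe is coding.
Ptprn: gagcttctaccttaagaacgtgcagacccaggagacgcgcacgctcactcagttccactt
Ptprn2, probe 1: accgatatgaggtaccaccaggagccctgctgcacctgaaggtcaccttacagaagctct
Exon annotation of mm9 was not used here.

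The arrays lay on a pair of slides, each scanned once. EXO-HP replicate 1 and both EXO-STD replicates were on slide 1, and EXO-HP replicates 2 and 3 were on slide 2. Between 71.8% and 91.6% of the spots that are not controls were well above background, with the higher shares on slide 2, and no spot was saturated. Of 12 beta cell markers, including Ins1, Ins2, Iapp, Pdx1, Nkx6-1 and Mafa, 12 were well above background on all 5 arrays. The glucagon, somatostatin and pancreatic polypeptide probes (Gcg, Sst, Ppy) were above background on all 5 arrays as well. Of skeletal muscle markers 11 were tested and 11 were above 0 in EXO-HP minus EXO-STD, with a median log2 fold change of 0.51 and none past the threshold, where 62.4% of all tested genes were above 0. Above 0 were also 10 of 12 beta cell markers (median 0.19), 4 of 4 acinar and duct (0.73), 4 of 4 immune (0.24) and 3 of 4 fibroblast markers (0.43). The same held for 2 of 4 endothelial (0.11), 2 of 5 alpha cell (-0.04), 2 of 3 delta cell (0.15), 1 of 2 PP cell (0.18) and 2 of 4 chromaffin markers (0.07). Only 8 of the 11 muscle markers were well above background on all 5 arrays. The same held for 2 of 4 acinar and duct, 2 of 4 fibroblast and 2 of 4 endothelial markers. A dim marker could enter the test through 1 group alone. So did Cpa1, Dcn, Lum, Cdh5 and Tek, which were well above background on only 2 arrays and are in these counts. Tested were 11 of 15 listed muscle markers, 4 of 6 acinar and duct, 4 of 6 fibroblast and 4 of 5 immune markers. Counts above 0 hold only for the scaling given below. The part of these cell types in the values below was not tested. All values below are log2 signals minus the 75th percentile of the array, so that 0 is that percentile and 1 unit is a doubling of signal. A level of one probe cannot be set against that of another, because probes differ in their response.

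None of the 7 genes differed between EXO-HP and EXO-STD cells beyond the spread between arrays. In limma over all 31945 tested probes, 0 probes (0%) passed an adjusted p of 0.05, among them none of the 9 of these genes, for which the adjusted p was 1.00 in each case. Without adjustment, 1787 probes (5.59%) had p under 0.05, again none of these 9, whose smallest unadjusted limma p was 0.504. The log2 fold changes of the 7 genes, EXO-HP minus EXO-STD, ran from -0.11 for Scg3 to 0.13 for Chgb with standard errors of 0.19 to 0.22. The median was 0.08 with 6 genes above 0, Chga among them at 6.48e-04, and 1 below, against a median of 0.07 over all 25920 tested genes, of which 62.4% were above 0. In the brightest decile of tested probes, which holds all of the 7 genes but Ptprn2, the median was lower, at -0.04, with quartiles of -0.13 and 0.06. The difference from that decile was not tested. Every 95% interval held 0, and over the 7 genes the intervals reached at most from 0.640-fold to 1.52-fold. In this fit, changes outside those bounds lay outside the intervals of all 7 genes, while smaller ones could not be told from none. Other fits reached further. With slide as a block the log2 interval of Chga ran from -0.45 to 0.99. With arrays centred on their median that of Scg3 ran from -0.89 to 0.32.

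Chga encodes chromogranin A, the most widely used marker of neuroendocrine granules and the precursor of pancreastatin and vasostatin. Its signal was 8.30, 7.85 and 7.95 on EXO-HP replicates 1, 2 and 3, against 8.07 and 7.99 on EXO-STD replicates 1 and 2. The highest and the lowest values both belonged to EXO-HP arrays, with both EXO-STD arrays in between. The means were 8.03 ± 0.24 (SD, n = 3) in EXO-HP and 8.03 ± 0.06 (SD, n = 2) in EXO-STD, and the log2 fold change was 6.48e-04 with a 95% interval from -0.56 to 0.56. This was the widest spread over the 5 arrays among the 7 genes, an SD of 0.172. EXO-HP replicate 1 alone stood 0.27 above the EXO-STD mean, and without it the log2 fold change was -0.13.

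Chgb encodes chromogranin B, which like chromogranin A drives aggregation in the granule core. Its signal was 7.75, 7.60 and 7.75 on EXO-HP replicates 1, 2 and 3, against 7.54 and 7.60 on EXO-STD replicates 1 and 2. Every EXO-HP value lay above both EXO-STD values, but EXO-HP replicate 2 exceeded EXO-STD replicate 2 by only 0.0047, an order that depended on which spots were averaged. The means were 7.70 ± 0.09 (SD, n = 3) in EXO-HP and 7.57 ± 0.04 (SD, n = 2) in EXO-STD, a log2 fold change of 0.13 ± 0.19 (SE), or 1.10-fold with a 95% interval from 0.794 to 1.52. Groups that do not overlap with EXO-HP on the higher side were found for 15.1% of all tested probes, and for 2 of these 7 genes, Chgb and Vgf. In the brightest decile of probes, which holds all of the 7 genes but Ptprn2, that share was 3.32%.

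The Chgb probe is printed 10 times on each array. On EXO-HP replicate 1 the spots ran from 7.43 over a median of 7.76 to 8.14, on replicate 2 from 7.43 over 7.57 to 7.92 and on replicate 3, where 1 spot was left out as an outlier, from 7.48 over 7.79 to 7.98. On EXO-STD replicate 1 they ran from 7.24 over 7.50 to 7.999 and on replicate 2 from 7.37 over 7.58 to 7.94. Much of this range went with the place of the spot and recurred from array to array. The means of the 9 spots kept on all 5 arrays had an SD of 0.185, and after spot and array means were taken off the residual SD was 0.0639. Matched spot by spot, EXO-HP replicate 1 was above EXO-STD replicate 1 on all 10 spots, by 0.13 to 0.29, and above EXO-STD replicate 2 on all 10, by 0.03 to 0.22. EXO-HP replicate 3 was above EXO-STD replicates 1 and 2 on 8 of 9 spots each. EXO-HP replicate 2 was above EXO-STD replicate 1 on 7 of 10 spots and above EXO-STD replicate 2 on 5 of 10. Spots of 1 array share its RNA and are not replicates of the condition, so no test was made over them. The spot left out on EXO-HP replicate 3 was among the dim ones on the other arrays. Over the 9 shared spots, a choice made after the values were seen, the array means were 7.78, 7.62 and 7.75 on EXO-HP replicates 1, 2 and 3, against 7.56 and 7.63 on EXO-STD replicates 1 and 2. EXO-HP replicate 1 was then the highest array, EXO-HP replicate 2 lay just below EXO-STD replicate 2, and the log2 fold change was again 0.13.

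**Figure D1:**
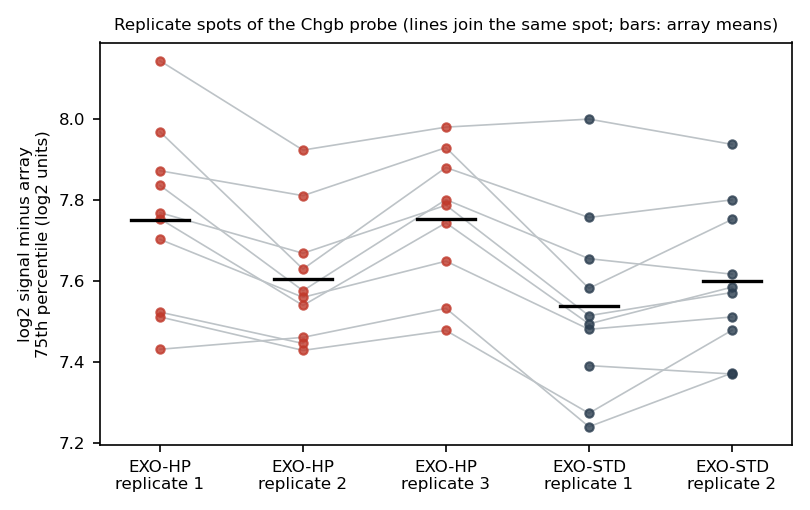
Log2 signal of each replicate spot of the Chgb probe, minus the array's 75th percentile (y axis, log2 units), on the 3 EXO-HP arrays (red) and the 2 EXO-STD arrays (dark blue). Grey lines join the same spot and bars are array means; EXO-HP replicate 1 lies above both EXO-STD arrays on all 10 spots, and EXO-HP replicate 2 lies above EXO-STD replicate 2 on 5 of 10.

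Scg2 encodes secretogranin II, the precursor of secretoneurin. Its signal was 6.69, 6.95 and 6.82 on EXO-HP replicates 1, 2 and 3, against 6.81 and 6.65 on EXO-STD replicates 1 and 2. The groups overlapped, as EXO-HP replicate 1 lay between the EXO-STD values. With means of 6.82 ± 0.13 (SD, n = 3) in EXO-HP and 6.73 ± 0.11 (SD, n = 2) in EXO-STD the log2 fold change was 0.09 (95% interval -0.41 to 0.59).

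Scg3 encodes secretogranin III, which binds chromogranin A and cholesterol-rich membrane and so ties the granule core to its envelope. Its signal was 5.96, 5.60 and 5.96 on EXO-HP replicates 1, 2 and 3, against 5.89 and 6.001 on EXO-STD replicates 1 and 2. EXO-HP replicate 2 lay apart below the other 4 arrays, which spanned 5.89 to 6.001. The means were 5.84 ± 0.21 (SD, n = 3) in EXO-HP and 5.95 ± 0.08 (SD, n = 2) in EXO-STD, and the log2 fold change of -0.11 (95% interval -0.64 to 0.43) was the only one of the 7 below 0. Without EXO-HP replicate 2 it was 0.01, so the sign rested on that array.

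Vgf encodes a neurotrophin-inducible granin-like precursor of several neuropeptides. Its signal was 5.62, 5.64 and 5.79 on EXO-HP replicates 1, 2 and 3, against 5.62 and 5.60 on EXO-STD replicates 1 and 2. The groups did not overlap, although 4 of the 5 arrays lay within 0.038 of each other and EXO-HP replicate 3 alone stood higher. The means were 5.68 ± 0.09 (SD, n = 3) in EXO-HP and 5.61 ± 0.01 (SD, n = 2) in EXO-STD, a log2 fold change of 0.07 (95% interval -0.39 to 0.54). At 0.0757 its SD over the 5 arrays was the smallest among the 7 genes.

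For the membrane proteins, Ptprn had a signal of 3.60, 3.41 and 3.41 on EXO-HP replicates 1, 2 and 3, against 3.45 and 3.34 on EXO-STD replicates 1 and 2. EXO-HP replicate 1 was the highest of the 5, and the other EXO-HP arrays lay between the EXO-STD values. The means were 3.47 ± 0.11 (SD, n = 3) in EXO-HP and 3.39 ± 0.08 (SD, n = 2) in EXO-STD, and the log2 fold change was 0.08 (95% interval -0.40 to 0.56).

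Ptprn2, read by probe 1, stood at -0.58, -0.80 and -0.74 on EXO-HP replicates 1, 2 and 3, against -0.88 and -0.79 on EXO-STD replicates 1 and 2. Here too EXO-HP replicate 1 was the highest array and EXO-HP replicate 2 lay between the EXO-STD values. The log2 fold change was 0.12 (95% interval -0.36 to 0.60), from means of -0.71 ± 0.12 (SD, n = 3) in EXO-HP and -0.83 ± 0.06 (SD, n = 2) in EXO-STD. Probe 2 gave -1.09, -1.21 and -0.94 in EXO-HP, against -1.27 and -1.10 in EXO-STD, a log2 fold change of 0.10 (95% interval -0.40 to 0.60). Probe 3 gave -1.39, -1.50 and -1.33 in EXO-HP, against -1.50 and -1.35 in EXO-STD, a log2 fold change of 0.02 (95% interval -0.46 to 0.50). The 3 probes thus differed by less than their standard errors of 0.19 to 0.20 in what they gave for the 5′ and the 3′ part of the transcript, and the groups overlapped on each. On probes 2 and 3 the highest array was EXO-HP replicate 3 and not replicate 1.

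**Figure D2:**
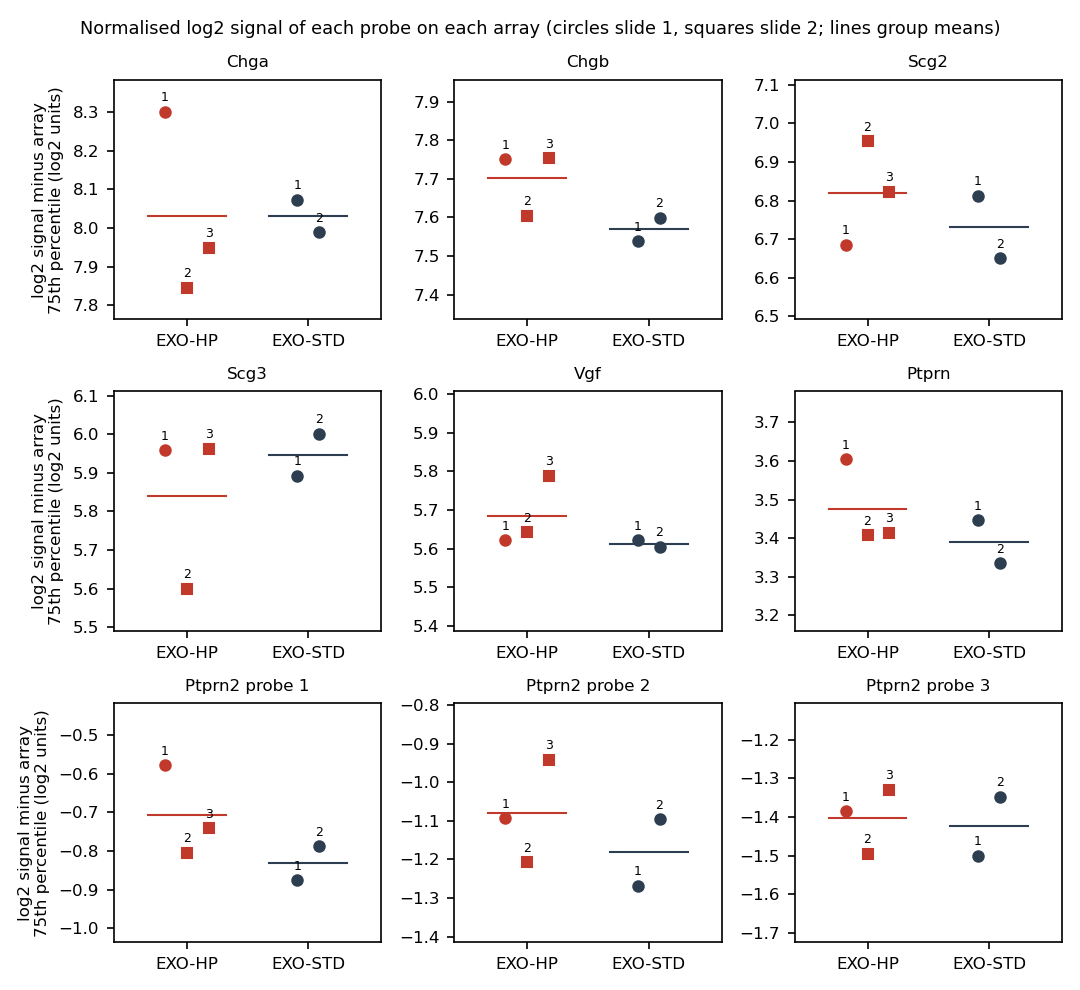
Log2 signal minus the array's 75th percentile (y axis, log2 units, the same span in every panel) for the 9 probes, with EXO-HP in red on the left and EXO-STD in dark blue on the right of each panel. Numbers are replicates, circles are slide 1, squares are slide 2 and lines are group means; the groups are apart only for Chgb and Vgf.

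Over the 7 genes no array was high or low throughout. EXO-HP replicate 1 was the highest array for 3 genes (Chga, Ptprn and Ptprn2), EXO-HP replicate 3 for 2 (Vgf, and Chgb as averaged over all kept spots), EXO-HP replicate 2 for Scg2 and EXO-STD replicate 2 for Scg3. The lowest array was an EXO-STD array for 5 genes and EXO-HP replicate 2 for Chga and Scg3. Relative to the EXO-STD mean, the median of the 7 genes on EXO-HP replicates 1, 2 and 3 was 0.18, 0.03 and 0.09, against 0.01 and -0.01 on EXO-STD replicates 1 and 2. The EXO-STD values mirror each other by construction, because their own mean is the reference. Their nearness to 0 is therefore no measure of the spread of that group. Slide 1 holds both groups, and within it, with slide as a block in limma, the log2 fold changes were 0.27 ± 0.28 (SE) for Chga, 0.18 ± 0.28 for Chgb, 0.21 ± 0.27 for Ptprn and 0.25 ± 0.27 for probe 1 of Ptprn2. Those of Scg2, Scg3 and Vgf were -0.05 ± 0.28, 0.01 ± 0.31 and 0.01 ± 0.28. These values rest on EXO-HP replicate 1 alone, their median was 0.18 and their adjusted p was 1.00 for each gene. Slide 2 holds EXO-HP arrays only and gives no difference.

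**Figure D3:**
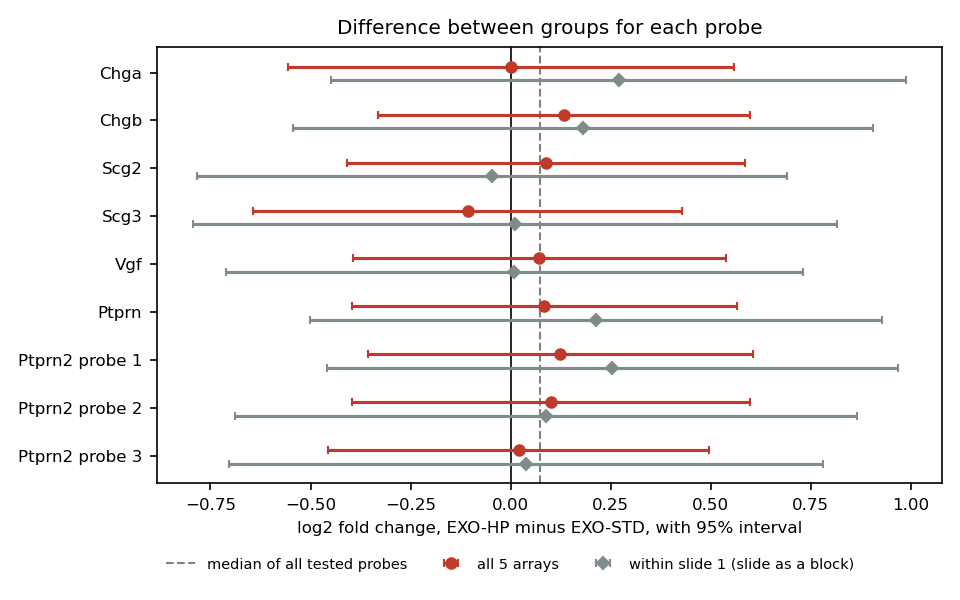
Log2 fold change, EXO-HP minus EXO-STD (x axis), with its 95% interval for each probe, from all 5 arrays (red circles) and within slide 1 (grey diamonds). The dashed line is the median of all tested probes at 0.07, and every interval crosses 0.

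Direction depended on how the arrays were scaled. Centring each array on its median, in place of the 75th percentile, moved the median of all probes to -0.10, against 0.07, and all 7 genes then lay below 0, with a median of -0.09. Relative to the median of all probes the 7 genes stood at -0.18 to 0.06 with a median of 0.0099, which is the same under both scalings by construction. With methods that change more than a constant per array, the median of the 7 genes minus that of all probes was 0.10 with normexp, 0.11 with quantile normalisation, 0.11 with the deposited value table and 0.13 with slide as a block, and it ran from -0.07 to 0.03 when 1 array was left out. The number of the 7 genes above 0 was 5 with normexp, quantile normalisation or the deposited table, 6 with slide as a block and 5 to 7 when 1 array was left out. Under none of 17 alternative ways of processing did any of the 7 genes pass an adjusted p of 0.05 in limma, and the smallest adjusted p among them was 0.939.

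**Figure D4:**
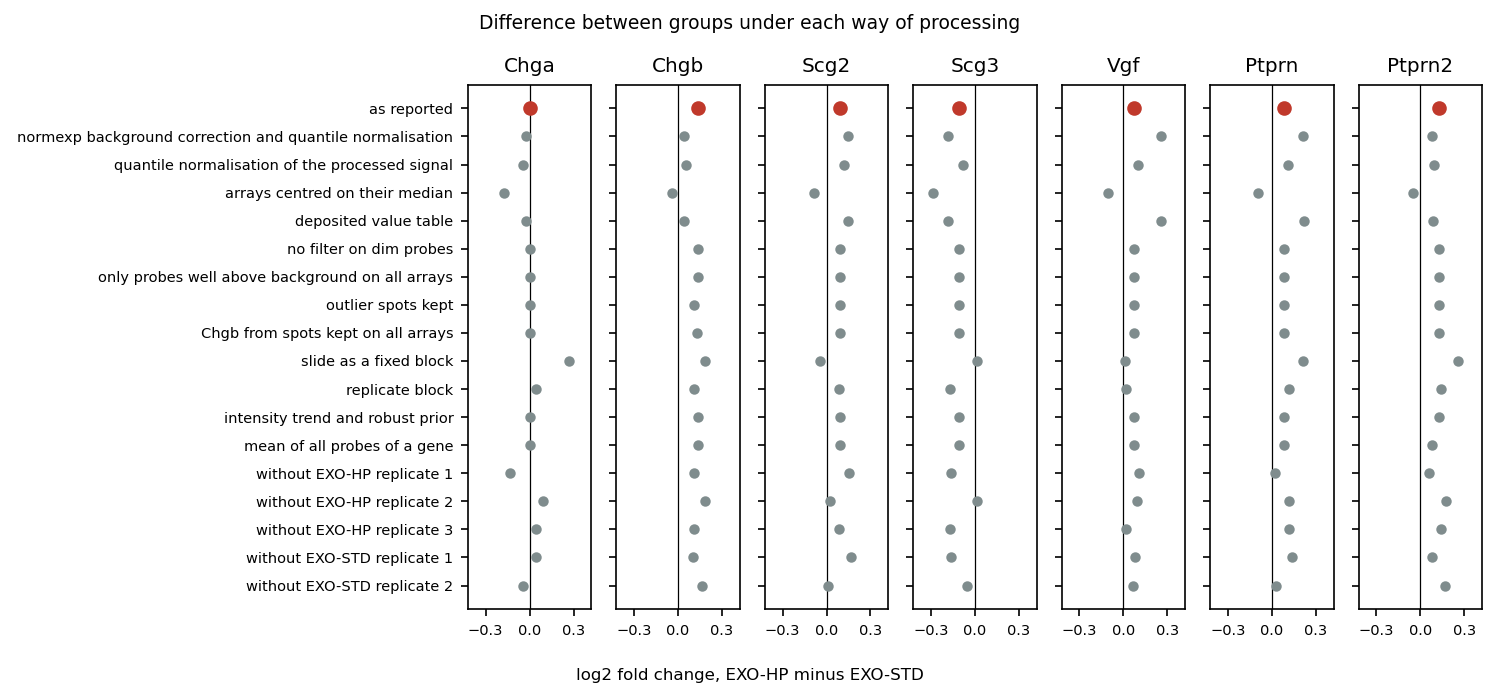
Log2 fold change of each gene, EXO-HP minus EXO-STD (x axis), as reported (red, top) and under 17 alternatives (grey). Values stay between -0.28 and 0.27.

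The SD over all 5 arrays ran from 0.0757 to 0.172 in the 7 genes, against a median of 0.296 over all tested probes and of 0.280 over the 3195 probes of the brightest decile. Profiles so flat resemble those of many other genes. After each gene was centred on its own mean, between 562 and 1467 of 25919 other genes lay within a root mean square difference of 0.1 of each member over the 5 arrays. The nearest genes were Fam177a2 and Trmu for Chgb (0.016 and 0.019), Gpbar1 and 4930547M16Rik for Scg2 (0.0072 and 0.012) and Dhx16 and Rnf44 for Scg3 (0.018 and 0.022). They were Iglon5 and Papss2 for Vgf (0.018 for both), Creb3l1 and Tubgcp4 for Ptprn (0.017 and 0.019), Ttc38 and Gsap for Ptprn2 (0.011 for both), and AI413759 and LOC640979 for Chga (0.016 and 0.018). Among the members themselves the closest were Chgb and Ptprn2, with a difference of 0.053, at which Chgb ranked 104 among the genes nearest to Ptprn2 and Ptprn2 ranked 138 among those nearest to Chgb. For Scg3 the nearest member was Chga at rank 2452.

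Further genes were taken from 7 lists, of granule making, filling and release, of transcription factors and of other receptor tyrosine phosphatases. The phosphatases were listed by family and not for a part in granules. Of the 94 tested entries of these lists, 0 passed in either direction (limma, adjusted p 0.05). As for the members, counts above and below 0 hold for scaling on the 75th percentile. Of 6 genes of prohormone processing and granin-like proteins, 4 were above 0 and 2 below, with a median log2 fold change of 0.03. Pcsk1, the convertase that starts the cutting of proinsulin, had 5.02, 4.86 and 5.10 on EXO-HP replicates 1, 2 and 3, against 4.81 and 3.86 on EXO-STD replicates 1 and 2. The groups did not overlap, with EXO-HP higher as for 15.1% of all tested probes and 3.32% of the brightest decile. However, EXO-STD replicate 1 lay close to EXO-HP replicate 2. The log2 fold change of 0.66 ± 0.32 (SE) was 0.18 without EXO-STD replicate 2. Pcsk2, a second convertase, had 0.26 ± 0.23 from its brighter probe and -0.08 ± 0.23 from the other. The brighter probe gave 0.08 with arrays centred on their median and 0.11 with slide as a block. It gave 0.41 without EXO-STD replicate 1 and 0.10 without EXO-STD replicate 2. Scg5, the chaperone of Pcsk2, had -0.18 ± 0.26, which turned to 0.09 without EXO-STD replicate 1 and was -0.46 without EXO-STD replicate 2.

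Among 11 peptide hormones and cargo genes, 8 were above 0 and 3 below (median 0.14). Ins2 had 7.73, 7.68 and 7.73 on EXO-HP replicates 1, 2 and 3, against 7.39 and 7.39 on EXO-STD replicates 1 and 2, a log2 fold change of 0.32 ± 0.18 (SE). Ins1 had 7.56, 7.59 and 7.61 in EXO-HP, against 7.47 and 7.42 in EXO-STD, and a log2 fold change of 0.14 ± 0.18. Neither passed (limma adjusted p of 0.971 and 1.00). The groups did not overlap for either gene, with EXO-HP higher as for 15.1% of all tested probes and 3.32% of the brightest decile. Ins2 gave 0.21 with normexp and 0.15 with arrays centred on their median, a constant shift that puts Ins1 below 0. Sst, the hormone of delta cells, had 0.52 ± 0.22, which was 0.01 with normexp background correction, and Ucn3, a marker of mature beta cells, 0.92 ± 0.52, which was 0.06 without EXO-STD replicate 2.

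Of 20 genes of granule biogenesis and sorting, 8 were above 0 and 12 below (median -0.02). The BAR domain proteins Arfip1 and Pick1, which shape budding granules, stood on opposite sides at -0.34 ± 0.22 and 0.28 ± 0.19. Vps54, a tethering subunit, had -0.32 ± 0.25 from its brighter probe, or -0.03 without EXO-STD replicate 2. Its other probe gave -0.12 ± 0.24. The 13 transporters and other membrane proteins had 8 above 0 and 5 below (median 0.02). Atp6v1a, a proton pump subunit that acidifies granules, had -0.24 ± 0.24 from its brighter probe, which turned to 0.01 without EXO-STD replicate 2. Its other probe gave -0.22 ± 0.21. Atp6v0a1, of the same pump, had -0.19 ± 0.25, which turned to 0.06 with slide as a block. Cyb561, which passes electrons across the granule membrane, had 0.17 ± 0.21, which turned to -0.0082 with slide as a block and to -0.0038 with arrays centred on their median.

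For docking and exocytosis 18 of 20 genes were tested, with 12 above 0 and 6 below (median 0.04). Myrip, a link between granules and the actin motor, had 1.24 ± 0.31 (unadjusted p = 0.009, limma adjusted p = 0.884), but was well above background on only 1 of the 2 EXO-STD arrays and gave 0.23 with normexp background correction. Stx1a, the plasma membrane syntaxin, had 0.35 ± 0.21. Exph5, a Rab27 effector, had 0.45 ± 0.22, or 0.07 with normexp. The 10 transcription factors known to act on granule genes had 3 above 0 and 7 below (median -0.05), with Egr1 at -0.36 ± 0.22, Sp1 at -0.23 ± 0.20, or -0.10 with slide as a block, and the CREB relative Crem at -0.23 ± 0.25 from its brightest probe. The other probes of Crem gave -0.11 ± 0.24 and 0.20 ± 0.34, and the brightest gave -0.10 without EXO-STD replicate 1. Of the other receptor tyrosine phosphatases 16 of 17 were tested, with 10 above 0 and 6 below (median 0.05). Ptprc, the leukocyte antigen CD45, had 0.56 ± 0.22, or 0.08 with normexp. Ptpre was not well above background on either EXO-STD array and is given no fold, and the probes of Ptprb disagreed at -0.78 ± 0.43 and 0.76 ± 0.27.

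**Figure D5:**
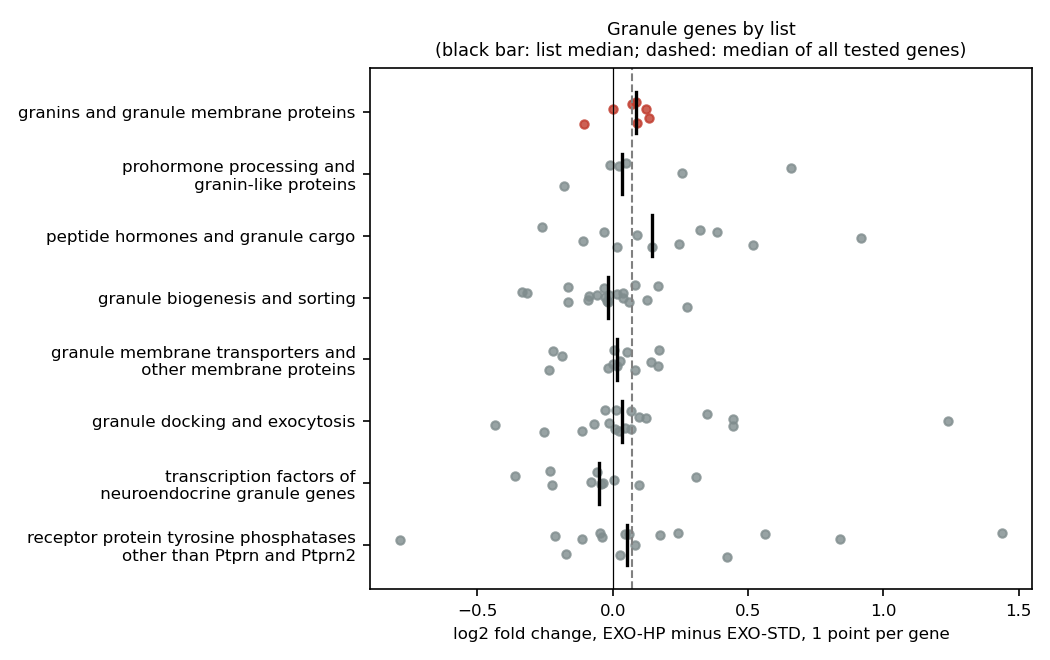
Log2 fold change, EXO-HP minus EXO-STD (x axis), 1 point per tested gene, for the granins and granule membrane proteins (red) and 7 further lists (grey). Black bars are list medians, from -0.05 to 0.14, and the dashed line is the median of all tested genes at 0.07; the 7 members lie between -0.11 and 0.13.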

How the data were processed

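Per the file headers, Feature Extraction 10.7.3.1 made the deposited spot intensity values by subtracting background from the Cy3 signal and detrending it. Agilent Feature Extraction 9.1 and limma are named in the submitters' processing notes. The deposited value table holds log2 values and served as an alternative. Its columns all had a median of 7.93 and ranked spots as mean signal minus local background does (Spearman rho of 1).

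Control and outlier spots were dropped, log2 signals were averaged per probe, and the 75th percentile of the array was taken off. Left untested were 110 probes lacking a usable spot somewhere and 7374 that fewer than 2 arrays of each group showed well above background. Symbols were updated through RefSeq accessions (66.1% of probes), and the brightest probe stood for a gene. The fit used limma 3.58.1 under R 4.3.3 (lmFit, eBayes, no covariates, 3 residual degrees of freedom), with Benjamini-Hochberg adjustment over all tested probes, and was tested on simulated data. The smallest 2-sided p of an exact permutation test with 3 and 2 arrays is 0.2. The number of arrays limits the precision.

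The members and lists were chosen with earlier results of these data known. Named were all members, the 3 genes of each further list with the smallest p, Ins1 and Ins2, and the 2 genes nearest to each member in profile.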

Additional observations from a re-analysis of the deposited data

How the results depend on the processing

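None of the 7 genes passed an adjusted p of 0.05 in limma under any of the 17 alternatives, 1 of them chosen after seeing the data (Chgb from the spots kept on all arrays). Over all probes the count past that threshold was 0 to 3 when 1 array was left out. The probes past it came without EXO-STD replicate 1, where the lone EXO-STD array is assumed to vary like the others. They were probes of Btbd10, Polr1e and LOC100048394, named after their values were seen. Their log2 fold changes were 9.41, 7.10 and 6.62 in that fit, against 4.77, 3.44 and 3.32 with all arrays. Each was well above background on only 4 of the 5 arrays. The median of the 7 genes, 0.084, was -0.092 with arrays centred on their median, a shift built into that scaling, and 0.182 with slide as a fixed block. Leaving out single arrays gave 0.029 to 0.094. With arrays centred on their median the log2 fold changes that turned below 0 were -0.175 for Chga, -0.043 for Chgb, -0.087 for Scg2, -0.105 for Vgf, -0.092 for Ptprn and -0.052 for Ptprn2. Chga also turned to -0.0234 with normexp, -0.0232 with the deposited value table and -0.044 with quantile normalisation, and ran from -0.134 to 0.094 when 1 array was left out. With slide as a block Scg2 turned to -0.047 and Scg3 to 0.0107, and Scg3 ran from -0.168 to 0.013 when 1 array was left out. The cause of these turns was not tested.

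With the replicate number of the titles as a replicate block the median of the 7 genes was 0.088 and 0 probes passed. Same-numbered arrays deviated from their group means with r = 0.025 for replicate 1 and -0.056 for replicate 2, so the numbers gave no sign of pairing, and EXO-HP replicate 3 has no partner in that fit. All 9 probes were well above background on all 5 arrays, and precision is bounded by having only 5 of them.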
